A study of Oryza sativa with 16 samples.

Results

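TIP1-1 and TIP3-1 encode tonoplast intrinsic proteins, the aquaporins of the vacuolar membrane, and were followed here in developing rice seeds with and without low temperature. They are 2 of the 17905 genes that the annotation pairs with a probe set of their own. Every probe set that the annotation assigned to 1 of the 2 genes alone was taken, which gave 3 of the 57381 probe sets of the Affymetrix rice genome array, 2 for TIP1-1 (gene ID 4331608) and 1 for TIP3-1 (gene ID 4348981). A further probe set is listed for TIP3-1 together with a second gene and was not used. All 3 passed the filter on low signal and were among the 34331 probe sets tested.

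Whole seeds came from 2 japonica cultivars, the cold-sensitive Zhonghua 11 (ZH) and the cold-resistant Hanfeng (HF), whose plants were kept at a day temperature of 28°C and a night temperature of 22°C. Untreated ZH seeds were sampled 4 days after fertilization (DAF), at 6, at 10 and at 12 DAF and are named by cultivar and day (ZH 4D for the first, ZH 12D for the last). For low temperature, ZH spent 2 days at 14°C from 4 DAF (ZH 4D-2DC) or from 10 DAF (ZH 10D-2DC), so that ZH 6D and ZH 12D are their untreated counterparts of the same age. HF was represented by untreated seeds of 4 DAF (HF 4D) and by seeds treated from 4 DAF (HF 4D-2DC), a pair in which treatment and age differed together. There were 16 arrays, a pair of biological replicates per condition in 8 conditions, and nothing says whether they came from separate plants, so that p-values measure only the spread between these samples.

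Aquaporins are channels that let water, and in some members small uncharged solutes, cross a membrane down its gradient. The TIP subfamily lies in the vacuolar membrane, where it equilibrates water between cytoplasm and vacuole. In Arabidopsis, TIP1 proteins are typical of the large vacuoles of growing and vegetative cells, whereas TIP3 proteins are seed proteins found in the membrane of protein storage vacuoles. In cereal grains such storage vacuoles fill with glutelins and other reserves in the endosperm and with globulins in the aleurone and embryo.

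Values were linear MAS5 signals, which the authors scaled so that each array has a 2% trimmed mean of 500. Fold changes are differences of log2(signal + 16), which understate the change of low signals, and were estimated with limma over all 8 conditions. Calls were made at p under 0.05 after Benjamini-Hochberg adjustment. Counts are also given at an unadjusted p under 0.05 with over 2-fold change (methods' threshold). The study's methods set this threshold for genes regulated by low temperature and other thresholds for genes of development, whereas here it is used in every comparison. Arrays of replicate 1 were brighter, with medians between 85.9 and 172 and maxima between 87265 and 256785, than those of replicate 2, with medians between 49.8 and 60.1 and maxima between 35851 and 58670. The main differences are therefore also shown separately for replicates 1 and 2.

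TIP1-1 was strongly detected on every array. Its brighter probe set (S1_a_at) gave signals of 20461 and 15088 in replicates 1 and 2 of ZH 4D, 51814 and 26629 in ZH 6D, 38162 and 26232 in ZH 10D, and 44174 and 16712 in ZH 12D. After low temperature it gave 29805 and 12421 in ZH 4D-2DC and 33341 and 24724 in ZH 10D-2DC. The lowest of these signals was thus far above the median of any array. In HF it gave 75501 and 26979 at 4 DAF, the former its highest signal of all, and 31065 and 30647 after treatment. Replicate 1 was above replicate 2 in all 8 conditions, as the highest signals of the arrays were.

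The second probe set of TIP1-1 (S1_x_at) is of a type that may also bind transcripts of other genes. Its signals were 1598 and 8657 in ZH 4D, 5518 and 11347 in ZH 6D, 6063 and 9294 in ZH 10D, and 8247 and 6314 in ZH 12D. They were 4036 and 4888 in ZH 4D-2DC, 5346 and 8771 in ZH 10D-2DC, 10204 and 6658 in HF 4D, and 7323 and 7883 in HF 4D-2DC. Here replicate 2 was the brighter array in most conditions, the opposite of the first probe set, and the value of ZH 4D replicate 1 was the lowest by a wide margin. Over the 8 condition means both probe sets had a Pearson correlation of 0.93, against 0.81 within replicate 1 and 0.61 within replicate 2.

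TIP3-1 (probe set S1_s_at, a type that can match several related transcripts) ranged much more widely. Untreated ZH seeds gave 47219 and 310 at 4 DAF, 85088 and 25860 at 6 DAF, 67047 and 40040 at 10 DAF, and 99632 and 37506 at 12 DAF. Treated ZH seeds gave 28793 and 13408 in ZH 4D-2DC and 126643 and 38730 in ZH 10D-2DC. The transcript was therefore high on every ZH array except 1 of the 2 at 4 DAF. HF seeds gave 843 and 18958 at 4 DAF and 18182 and 26570 after treatment, again with 1 low and 1 high array at 4 DAF. The low array was replicate 2 in ZH and replicate 1 in HF, so that the disagreement did not follow the replicate number.

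**Figure D1:**
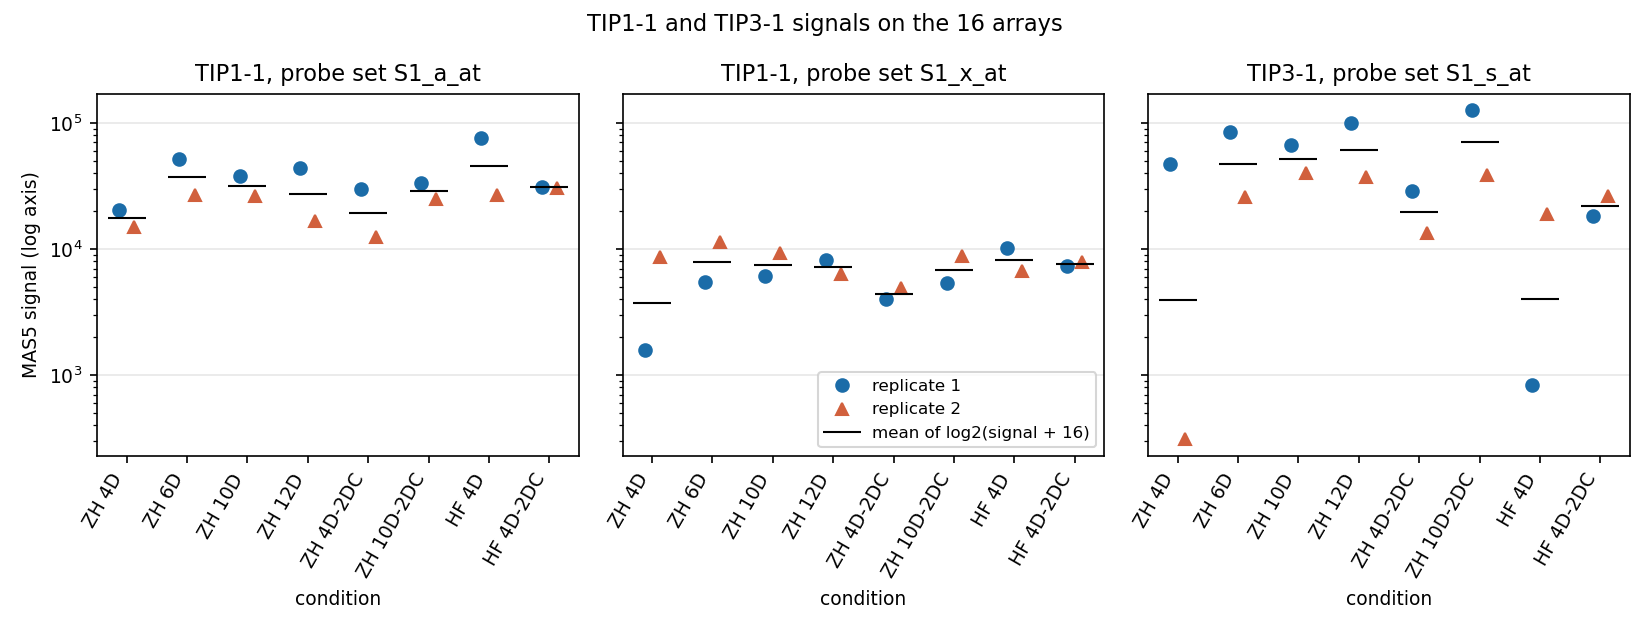
Signal (log axis) of the 3 probe sets of TIP1-1 and TIP3-1 in each of the 8 conditions, with circles for replicate 1, triangles for replicate 2 and a bar at the mean of log2(signal + 16). TIP1-1 S1_a_at stays between 12421 and 75501, whereas TIP3-1 falls to 310 on 1 array of ZH 4D and to 843 on 1 array of HF 4D and is 13408 or more on all others.

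Ordered by the mean of log2(signal + 16), TIP1-1 S1_a_at was highest in HF 4D at 15.46 ± 1.05 (SD, n = 2), followed by ZH 6D at 15.18 ± 0.68, ZH 10D at 14.95 ± 0.38, HF 4D-2DC at 14.91 ± 0.01, ZH 10D-2DC at 14.81 ± 0.30, ZH 12D at 14.73 ± 0.99, ZH 4D-2DC at 14.23 ± 0.89 and ZH 4D at 14.10 ± 0.31. No neighbours in this order differed by more than the residual SD of 0.68. TIP3-1 was highest in ZH 10D-2DC at 16.10 ± 1.21 (SD, n = 2), followed by ZH 12D at 15.90 ± 1.0, ZH 10D at 15.66 ± 0.53, ZH 6D at 15.52 ± 1.21, HF 4D-2DC at 14.42 ± 0.39, ZH 4D-2DC at 14.26 ± 0.78, HF 4D at 11.98 ± 3.16 and ZH 4D at 11.94 ± 5.07. The step from ZH 4D-2DC to HF 4D was 2.28, about the residual SD of 2.25, and the arrays of all neighbours overlapped. That residual SD was larger than that of 98.9% of the probe sets tested, whereas the median residual SD of all was 0.90.

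The first comparison asked how the 2 genes change as the untreated ZH seed develops, with 10 and 12 DAF (late) set against 4 and 6 DAF (early). TIP3-1 had a log2 difference of 2.05 (SE 1.32, limma adjusted p = 0.62) and TIP1-1 of 0.20 (SE 0.52, adjusted p = 0.95) and 0.44 (SE 0.54, adjusted p = 0.86) for its 2 probe sets. None of the 3 passed the adjusted p, which 1.15% of all probe sets passed, or the methods' threshold, which 11.2% passed. Within replicate 1 the difference of TIP3-1 was 0.37 and within replicate 2 it was 3.74. Without ZH 4D replicate 2 it was 0.26 and without ZH 4D replicate 1 it was 3.85, and with ZH 6D alone as the early stage, an alternative added after the data were seen, it was 0.26.

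An exact two-sided permutation test of the 4 late against the 4 early arrays gave p = 0.37 for TIP3-1, and p = 0.74 and p = 0.69 for the TIP1-1 probe sets, where the smallest p that 4 against 4 can give is 0.0286. The test takes the 4 arrays of a stage as interchangeable, although they are pairs from 2 ages and not 4 replicates of 1 condition. After quantile normalization the late and early arrays of TIP3-1 no longer overlapped, its log2 difference was 2.20, and its exact permutation p was 0.0286. The gap was narrow, with 15.54 as the lowest late and 15.44 as the highest early value, while the lowest early value was 8.17. On the same quantile-normalized values, 5.23% of the probe sets tested had late arrays that were all above the early ones. The log2 difference between TIP3-1 and TIP1-1 S1_a_at on the same array was higher late than early by 1.85, with an exact permutation p of 0.26, so that unequal change of the 2 genes was not detectable with these arrays.

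The replicates of TIP3-1 disagreed most at 4 DAF, and with them the step from 4 to 6 DAF. TIP3-1 had a log2 difference of 3.58 between ZH 6D and ZH 4D (SE 1.87, limma adjusted p = 1.0), which was 0.85 within replicate 1 and 6.31 within replicate 2. TIP1-1 S1_a_at differed by 1.08 (SE 0.73, adjusted p = 1.0), by 1.34 within replicate 1 and by 0.82 within replicate 2, and both of its ZH 6D arrays were above both ZH 4D arrays, as in 10.9% of all probe sets. The arrays of S1_x_at overlapped in this step, with a log2 difference of 1.08 (SE 0.76), 1.78 within replicate 1 and 0.39 within replicate 2. From 10 to 12 DAF the log2 differences were 0.24 for TIP3-1 (SE 1.87) and -0.22 for TIP1-1 S1_a_at (SE 0.73). No member was called in either step, and the methods' threshold was passed by 2.23% of all probe sets from 4 to 6 DAF and by 0.845% from 10 to 12 DAF.

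The arrays on which TIP3-1 was low were also low in endosperm genes. Of the 6 endosperm markers, 5 had ZH 4D replicate 2 and HF 4D replicate 1 as their 2 lowest arrays, and so did 5 of 8 genes in the list of storage proteins, against 2.71% of all probe sets tested. The lists share GLUA1, GLUA2 and PROLM25, and of the 5 storage genes outside the endosperm list 3 had those lowest arrays. GLB1, which did not, entered the storage list by its symbol alone. The brightest probe sets of GLUA1, GLUA2, PROLM25, Sbe1 and Wx are of types that may also bind other transcripts (s_at or x_at). Those of AGPS2, GLUA3, GLUB5 and GLUD1 are not. A second and much dimmer GLUA2 probe set (35.2 to 519) was lowest on an array outside untreated 4 DAF seeds. Other probe sets of the listed genes were not counted. Wx, the granule-bound starch synthase that makes amylose, gave 129946 and 7381 in replicates 1 and 2 of ZH 4D and 5930 and 21331 in HF 4D. GLUA2, a glutelin gene, gave 27688 and 163 in ZH 4D and 7230 and 31185 in HF 4D. Both thus reversed their replicate order between the cultivars as TIP3-1 did. The sixth marker, the prolamin gene PROLM25, had both ZH 4D arrays as its lowest.

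Over the 16 arrays TIP3-1 had a Pearson correlation of 0.95 with the mean log2 signal of the 6 endosperm markers, 0.93 within replicate 1 and 0.99 within replicate 2 (n = 8 each). Without the 2 low arrays it was 0.86 (n = 14). Against 6 embryo and aleurone markers it was 0.71, with 0.66 and 0.81 within replicates 1 and 2. Against 4 green pericarp markers it was -0.55, with -0.80 within replicate 1 and 0.07 within replicate 2. TIP1-1 S1_a_at had a correlation of 0.33 with the endosperm markers over the 16 arrays, -0.25 within replicate 1 and 0.48 within replicate 2, and of 0.76 without the 2 arrays. TIP1-1 S1_x_at was at -0.20 over the 16 arrays and at 0.09 without the 2. Correlations over both replicates together also hold the brightness difference between replicates 1 and 2, whose part was not tested. These are descriptions, since the arrays share their scaling and tissue. In whole seeds, a smaller share of endosperm and less TIP3-1 RNA per cell cannot be told apart, and the part of seed makeup in the TIP3-1 values was not tested.

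**Figure D2:**
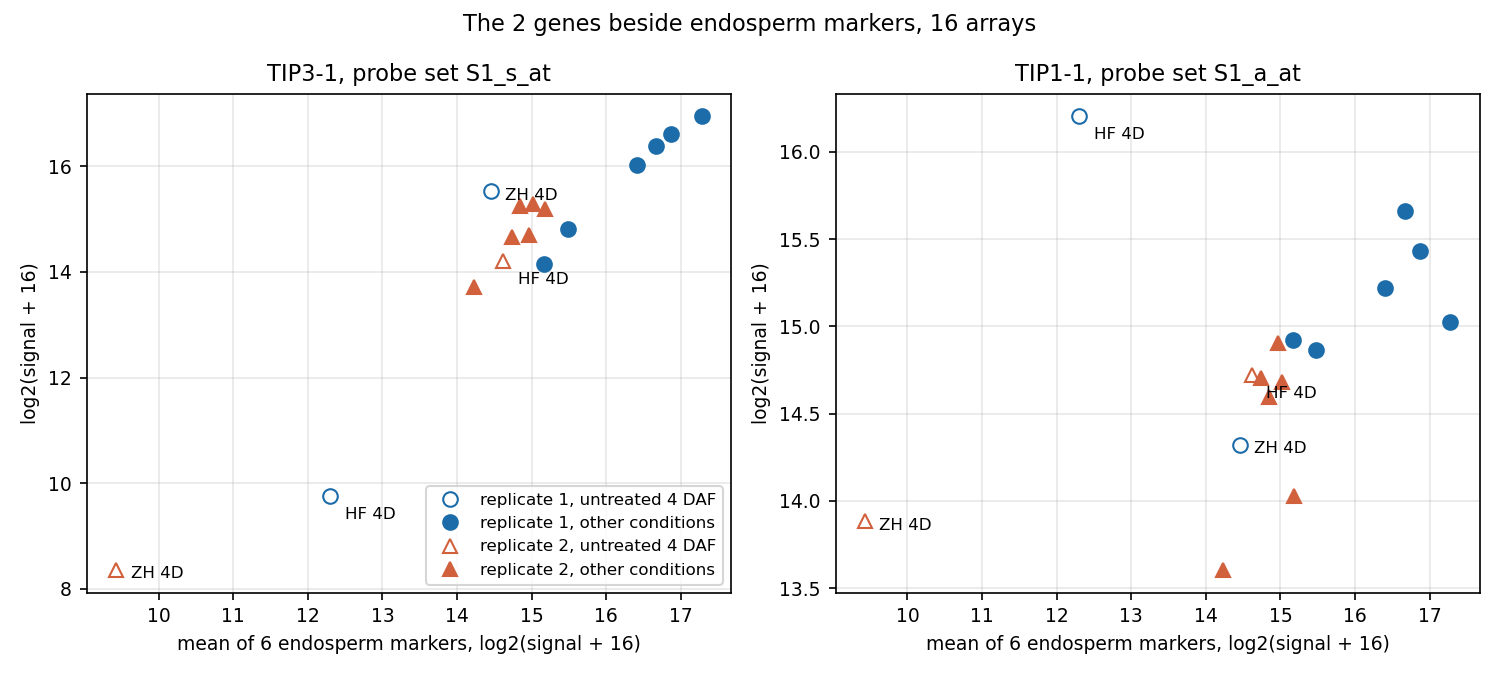
Log2(signal + 16) of TIP3-1 (left) and TIP1-1 S1_a_at (right) against the mean of 6 endosperm markers on the same array, with circles for replicate 1, triangles for replicate 2 and open symbols for untreated seeds of 4 DAF. TIP3-1 is low on the 2 open points that lie lowest in endosperm markers (Pearson r = 0.95 over 16 arrays, 0.86 without those 2), whereas TIP1-1 has its highest value, HF 4D replicate 1, on one of those arrays.

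The summed signal of the endosperm markers was 272684 and 26364 in replicates 1 and 2 of ZH 4D and 32146 and 152428 in HF 4D, against 117181 to 997807 on the other 12 arrays. The embryo and aleurone markers summed to 1066 and 774 in ZH 4D and 1601 and 8865 in HF 4D, against 5085 to 301785 elsewhere. All 6 of the latter list were higher late than early at the methods' threshold, 5 of them at the adjusted p, with a median log2 difference of 4.78, against 11.2% and 1.15% of all probe sets.

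Genes whose pattern over the 8 condition means was most like that of TIP3-1 were sought among the 75 tested genes that carry a symbol. The highest Pearson correlations were those of the calcium-dependent protein kinase CPK23 (0.97), of AGPS2, a small subunit of ADP-glucose pyrophosphorylase in starch synthesis (0.96), of the late embryogenesis abundant gene LEA19 (0.90), of the glyoxalase gene GLYI-11 (0.85) and of IRX14 (0.84). CPK23 was alike also within replicate 1 (0.99) and within replicate 2 (0.96), whereas IRX14 was not (0.39 and 0.03). With genes named by a synonym included, 2250 genes in all and a choice made after the annotation had been seen, the lipid transfer protein gene LTP-2 was first at 0.98, with 0.99 within each replicate. It was followed by ROMT-17, the starch branching enzyme Sbe1, gst2 and G1L9, each at 0.98, where the brightest probe set of Sbe1 was at 0.94. Of the listed genes TIP3-2 was at 0.96 and the vacuolar processing enzyme VPE1, which matures glutelins, at 0.95. In the storage list 6 of the 8 genes were at 0.84 (PROLM25) to 0.95 (GLUA3). There GLUB4 was at 0.23 and GLB1, listed by its symbol alone, at -0.44. The conditions share arrays, scaling and the 2 low arrays, and the correlations carry no test.

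Among the 75 genes the nearest to TIP1-1 were the hemoglobin gene NSHB1 (0.88), AL1 (0.75), VIPP1 (0.64), MHZ4 (0.62) and the kinase gene GSK4 (0.62), and NSHB1 was at 0.22 within replicate 1 and 0.66 within replicate 2. With synonyms included, DOHH-B was first at 0.93, with 0.74 and 0.81 within the replicates. NSHB1 was then second, followed by HOS59 (0.88), CML27 (0.84) and IVD (0.82), which were at 0.14 or less within replicate 2. TIP1-1 and TIP3-1 correlated with each other at 0.14 over the 8 means, at -0.51 within replicate 1 and 0.51 within replicate 2.

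The effect of low temperature was compared with untreated seeds of the same age. In ZH treated from 4 DAF all 3 probe sets were lower than in ZH 6D within both replicates. The log2 difference of TIP3-1 was -1.25 (SE 1.87, 95% interval -5.30 to 2.79), with -1.56 and -0.95 within replicates 1 and 2. That of TIP1-1 S1_a_at was -0.95 (SE 0.73, -2.54 to 0.64), with -0.80 and -1.10, and that of S1_x_at was -0.83 (SE 0.76, -2.49 to 0.82), with -0.45 and -1.21. Each limma adjusted p rounded to 1.0, none passed the methods' threshold, which 1.21% of all probe sets passed, and the arrays overlapped except for S1_x_at, which was lower on both treated arrays as 11.2% of all probe sets were. Endosperm markers were lower in 6 of 6 genes with a median of -0.74, and the storage protein list in 7 of 8 with a median of -0.90, none of them past the methods' threshold, against a median of 0.04 over all probe sets tested. Their part in the differences of TIP1-1 and TIP3-1 was not tested.

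In ZH treated from 10 DAF the differences from ZH 12D were near 0. That of TIP3-1 was 0.20 (SE 1.87, 95% interval -3.85 to 4.24), with 0.35 and 0.05 within replicates 1 and 2, and that of TIP1-1 S1_a_at was 0.08 (SE 0.73, -1.51 to 1.67), with -0.41 and 0.56. The second TIP1-1 probe set was at -0.08 (SE 0.76). None was called, whereas 2.51% of all probe sets passed the methods' threshold. The difference between stages, late minus early treatment, was 1.45 for TIP3-1 (SE 2.64) and 1.03 for TIP1-1 S1_a_at (SE 1.04), with limma adjusted p of 1.0 for both, and 1.25% of all probe sets passed the methods' threshold. The intervals are wide enough to hold a change of several-fold in either direction for TIP3-1, so that neither an effect of low temperature nor its absence was shown.

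**Figure D3:**
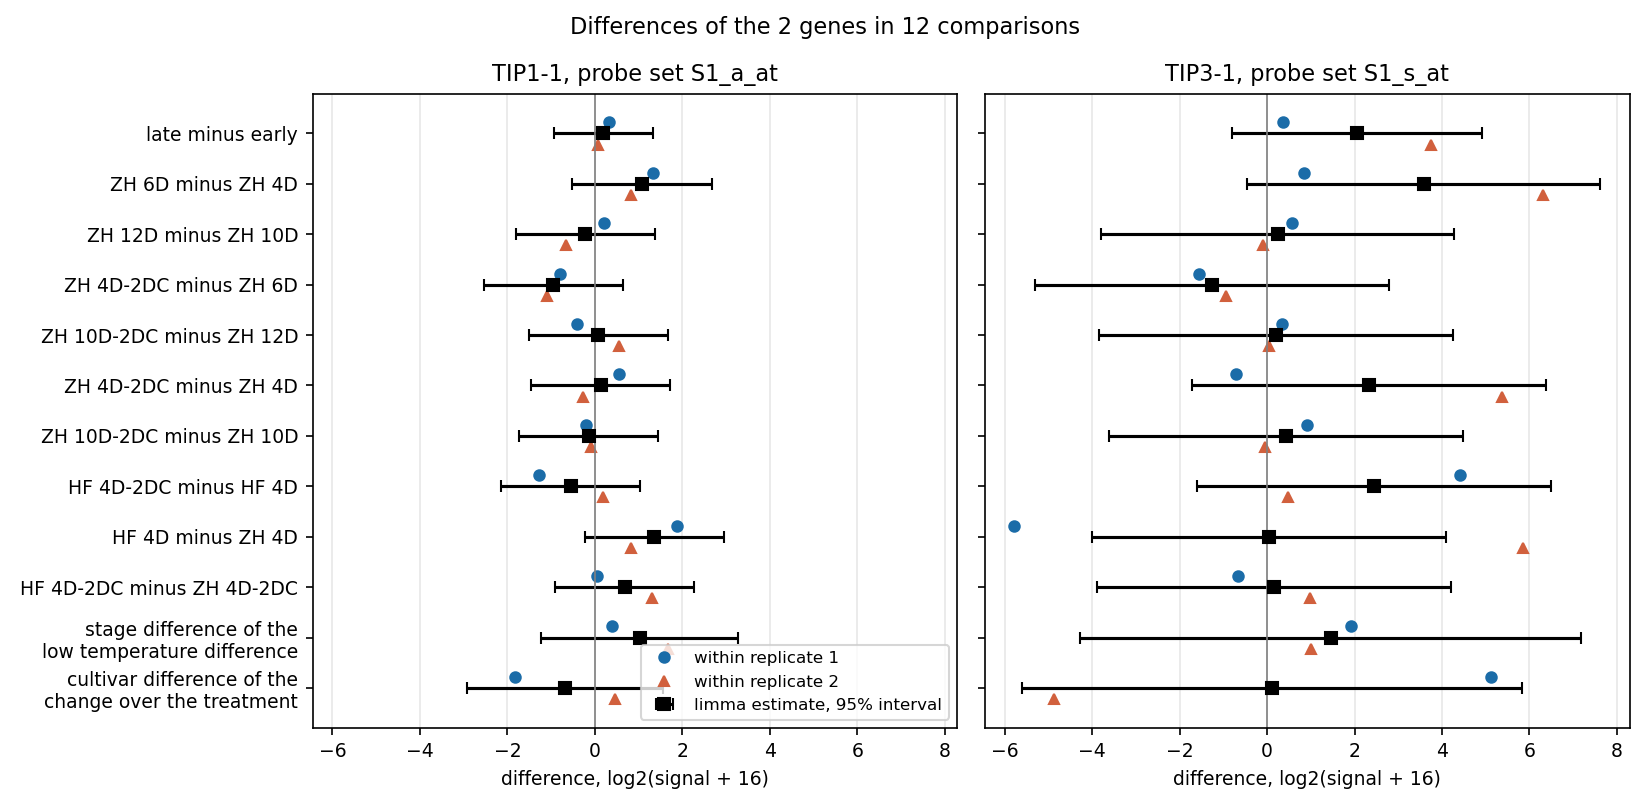
Log2 differences of TIP1-1 S1_a_at (left) and TIP3-1 (right) in the 12 comparisons, with squares for the limma estimate, bars for its 95% interval, circles for the difference within replicate 1 and triangles for that within replicate 2. Every interval includes 0, and the replicates of TIP3-1 disagree wherever ZH 4D or HF 4D enters, most of all in HF 4D minus ZH 4D (-5.78 and 5.86).

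Against seeds before treatment, in which age also differs, TIP3-1 was at 2.32 in ZH 4D-2DC minus ZH 4D (SE 1.87), with -0.71 and 5.36 within replicates 1 and 2. In HF 4D-2DC minus HF 4D it was at 2.45 (SE 1.87), with 4.40 and 0.49. Both replicates were thus higher after the treatment in HF but not in ZH. The difference between the cultivars in this change was 0.12 (SE 2.64), which was 5.12 within replicate 1 and -4.88 within replicate 2. TIP1-1 S1_a_at was at 0.13 in ZH (SE 0.73) and at -0.55 in HF (SE 0.73). None was called in these comparisons, in which 1.74%, 2.29% and 0.714% of all probe sets passed the methods' threshold. In ZH 10D-2DC minus ZH 10D, where 1.76% passed, TIP3-1 was at 0.43 (SE 1.87) and TIP1-1 S1_a_at at -0.14 (SE 0.73).

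Between the cultivars at 4 DAF, TIP1-1 S1_a_at was higher in HF 4D than in ZH 4D on both arrays, 75501 and 26979 against 20461 and 15088. The log2 difference was 1.36 (SE 0.73, 95% interval -0.23 to 2.95, limma adjusted p = 1.0), with 1.88 within replicate 1 and 0.84 within replicate 2. With replicate number as a block it had an unadjusted limma p of 0.0210 and passed the methods' threshold, as 4.67% of all probe sets did with the block, though not the adjusted p (1.0). Without HF 4D replicate 1 the difference was 0.62 and without replicate 2 it was 2.10. Non-overlapping arrays that were higher in HF were seen in 7.24% of all probe sets, and 1.88% passed the methods' threshold without the block. The second TIP1-1 probe set was at 1.14 (SE 0.76), with 2.66 and -0.38 within the replicates.

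Green pericarp markers moved in the same direction, with 3 of 3 tested genes higher in HF 4D at a median log2 difference of 1.66, none past the methods' threshold. They summed to 79322 and 60176 in HF 4D and to 33250 and 32789 in ZH 4D, and their part in the TIP1-1 difference was not tested. TIP3-1 had a cultivar difference of 0.04 at 4 DAF (SE 1.87), with -5.78 and 5.86 within the replicates. After low temperature TIP1-1 was higher in treated HF than in treated ZH seeds by 0.68 (S1_a_at, SE 0.73) and 0.77 (S1_x_at, SE 0.76), with no overlap of the arrays for either, as in 6.98% of all probe sets. For S1_a_at that gap was narrow, 30647 against 29805. TIP3-1 was at 0.16 (SE 1.87), and none was called, with 1.3% of all probe sets past the methods' threshold.

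Of the other 6 TIP genes measured, TIP3-2 was the one whose condition means followed TIP3-1 most closely, at a Pearson correlation of 0.96. TIP1-2 came next at 0.735, with 0.07 and 0.47 within replicates 1 and 2. Whether the TIP3-1 probe set also binds TIP3-2 transcripts was not tested. The signals of TIP3-2 were 534 and 174 in ZH 4D, 1746 and 2340 in ZH 6D, 3021 and 7328 in ZH 10D, and 4360 and 4694 in ZH 12D, so that all late arrays were above all early ones, as in 4.88% of the probe sets tested. It had a late minus early log2 difference of 2.51 (SE 0.59), which passed the methods' threshold but not the adjusted p (limma, 0.0668), and passed it with replicate number as a block (0.0213). From 4 to 6 DAF it differed by 2.66 (SE 0.83), past the methods' threshold and not the adjusted p (1.0). In HF 4D it gave 219 and 1276, and ZH 4D replicate 2 and HF 4D replicate 1 were its 2 lowest arrays, as for TIP3-1.

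TIP4-2 was measured by a probe set (S1_x_at) of the type that may also bind transcripts of other genes. It gave a higher signal in treated than in untreated ZH seeds of the same age within both replicates at both stages. It was at 35.2 and 406 in ZH 6D against 218 and 1521 in ZH 4D-2DC, and 47.5 and 501 in ZH 12D against 279.6 and 1524 in ZH 10D-2DC. The replicate 1 signals of ZH 6D and ZH 12D were below the medians of those arrays, 115 and 116. The log2 differences were 2.03 (SE 1.45) and 1.90 (SE 1.45), and neither passed a threshold in the fit without a block. With replicate number as a block the unadjusted limma p were 0.00264 and 0.00416, past the methods' threshold, which 3.29% and 6.05% of all probe sets passed with the block, and the adjusted p were 1.0 and 0.76. In HF it gave 78.5 and 537 at 4 DAF against 226 and 981 after treatment, a log2 difference of 1.11 (SE 1.45) in which age also differs. The like differences in ZH were smaller. TIP4-2 was at 0.16 in ZH 4D-2DC minus ZH 4D (SE 1.45), with -0.58 and 0.90 within replicates 1 and 2. In ZH 10D-2DC minus ZH 10D it was at 0.75 (SE 1.45). With the block it was also lower in ZH 6D than in ZH 4D (-1.87, limma adjusted p = 0.94, unadjusted p = 0.00458) and in HF 4D than in ZH 4D (-1.23, limma adjusted p = 1.0, unadjusted p = 0.0412), comparisons in which 4.83% and 4.67% of all probe sets passed the methods' threshold with it.

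TIP1-2 and TIP2-1 were dim, at 12.5 to 488 and 5.31 to 371, and TIP2-2 ranged from 382 to 14489 with replicate 2 above replicate 1 in every condition. TIP4-1 stayed between 728 and 2212. In late minus early, TIP1-2 had a log2 difference of 1.58 (SE 0.77), TIP2-1 of 0.83 (SE 0.84), TIP2-2 of 1.10 (SE 1.21), TIP4-1 of -0.30 (SE 0.46) and TIP4-2 of -0.06 (SE 1.03). None of these passed the adjusted p or the methods' threshold without the block, and TIP1-2 passed the methods' threshold with it (limma, unadjusted p = 0.0306, adjusted p = 0.21), as 16.2% of all probe sets did.

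**Figure D4:**
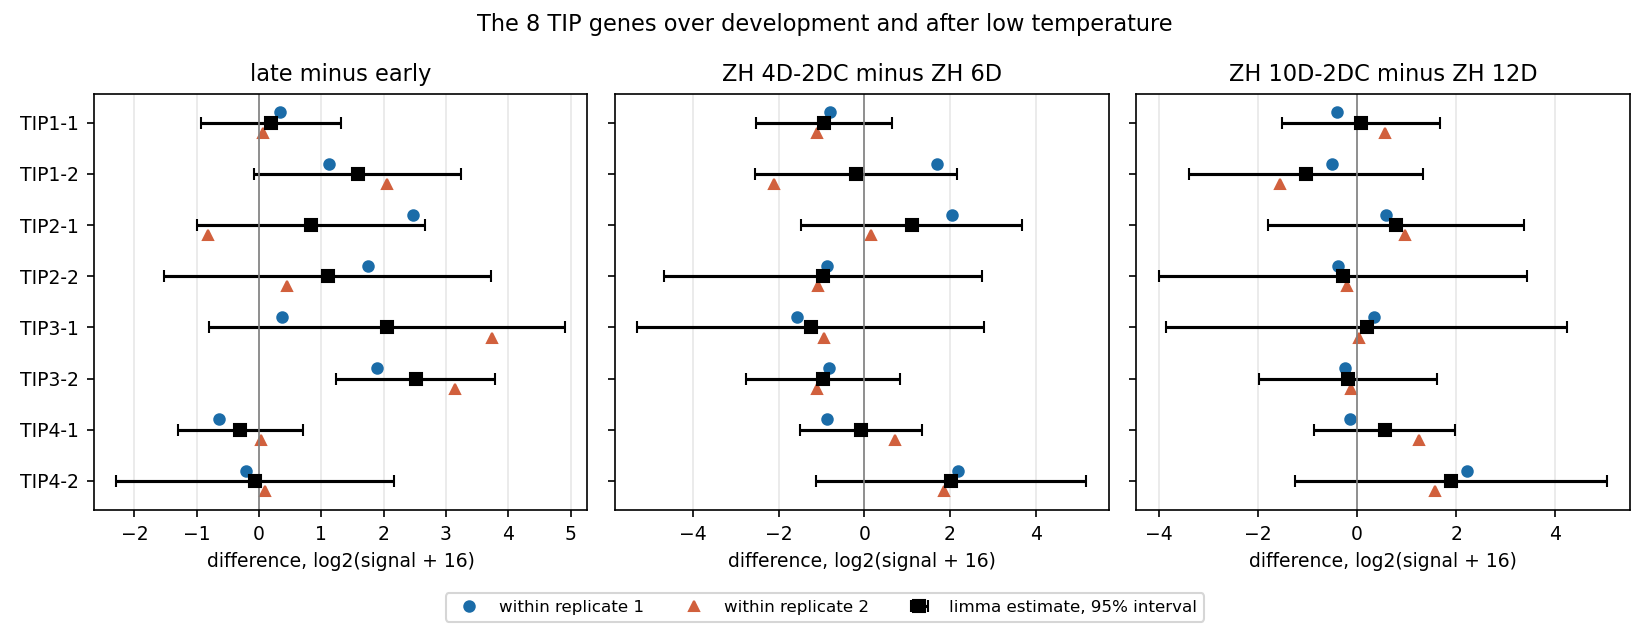
Log2 differences of the 8 TIP genes, 1 probe set each, between late and early untreated ZH seeds and between treated and untreated ZH seeds of the same age, with squares for the limma estimate, bars for its 95% interval, and circles and triangles for the differences within replicates 1 and 2. TIP3-2 lies above 0 with development (2.51). TIP4-2 lies above 0 in both replicates after low temperature at both stages (2.03 and 1.90). Its intervals, from the fit without replicate number as a block, include 0.

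The wider family was described through 23 other aquaporin genes, of which 20 were tested. In late minus early, 14 were above 0 and 6 below with a median log2 difference of 0.44, against -0.01 over all probe sets, and 3 were higher at the methods' threshold, which 11.2% of all probe sets passed in either direction, and none at the adjusted p. These were TIP3-2, the plasma membrane aquaporin PIP2-1 at 1.26 (SE 0.44) and PIP2-5 at 2.81 (SE 1.29), the last named after its value was seen. With the block 5 passed the methods' threshold, and TIP3-2 and PIP2-5 also the adjusted p (limma, 0.0213 and 0.0459), against 16.2% and 4.06% of all probe sets. In ZH 4D-2DC minus ZH 6D, 5 were above 0 and 15 below with a median of -0.28, the direction of TIP1-1 and TIP3-1. None passed the methods' threshold without the block, against 1 higher (TIP4-2) and 1 lower with it. Of all probe sets, 1.21% passed it without the block and 3.29% with it. In HF 4D minus ZH 4D, 16 were above 0 and 4 below with a median of 0.74, against -0.02 over all probe sets, and of the PIP genes 9 of 9 tested were above 0, none past that threshold without the block and 2 with it, against 1.88% and 4.67% of all probe sets.

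Of the remaining subfamilies, the nodulin-26-like NIP1-1 and the small basic aquaporin SIP1-1 had late minus early differences of -1.03 (SE 1.14) and -0.26 (SE 0.46). PIP1-2 and PIP1-1 were at 0.10 (SE 0.86) and 1.09 (SE 1.12). NIP2-1, a silicon channel named after its value was seen, was lower in ZH 6D than in ZH 4D (-2.49, SE 0.99). It passed the methods' threshold, as 2.23% of all probe sets did. Its signals were 236 and 508 in replicates 1 and 2 of ZH 4D and 186 and 4.74 in ZH 6D, so that most of the difference came from replicate 2. NIP1-1 ran against TIP3-1 over the 8 condition means, with a Pearson correlation of -0.89.

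The list of storage proteins was compared over the same days. Most of its genes are for glutelins, which accumulate in protein storage vacuoles. PROLM25 is for a prolamin, which accumulates in protein bodies of the endoplasmic reticulum, and GLB1 was listed by its symbol alone. From 4 to 6 DAF 6 of 8 were higher at the methods' threshold with a median log2 difference of 4.76, against 2.23% of all probe sets past that threshold and a median of -0.06, and none passed the adjusted p. GLUB5 gave 52001 and 347 in ZH 4D and 200031 and 41208 in ZH 6D, and PROLM25 gave 4187 and 3.04 and then 129693 and 30602. Of the vacuolar genes matched, VPE1 gave 6215 and 4096 in ZH 4D and 12278 and 8357 in ZH 6D, and the proton pump subunit VATP-P1 had a correlation of -0.44 with TIP3-1 over the condition means.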

How the data were processed

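RNA of whole seeds was hybridized to Affymetrix rice genome arrays, 1 per sample. The authors deposited linear signal intensities from MAS5, per the labels, scaled to a 2% trimmed mean of 500, whereas the study's methods name GC-RMA. Precision is limited by the number of arrays. The 2 genes and all gene lists were chosen with earlier results of these data known. Probe sets were named through the platform annotation and RefSeq names (assembly ASM3414082v1): 22436 had 1 gene, 95 several and 34850 none. Lists were built from symbols and synonyms, and each gene was represented by its brightest probe set. Genes named were the members, every other TIP, up to 3 of the highest mean in each list, and the 5 most correlated with each member. No sequence or coordinate was used.

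Values were compared as log2(signal + 16). After removal of 187 control probe sets, those with a mean above the 40th percentile were tested with limma 3.58.1 in R 4.3.3 (1 coefficient per condition, two-sided). The fit was first run on simulated data with independent noise of reduced spread, large planted changes and no replicate effect. That run does not show how the fit behaves on these arrays. Arrays of the same replicate number deviated together in all 28 pairs of conditions (correlations of 0.22 to 0.64), so the labels' numbers were taken to pair the samples. The fit with replicate number as a block is printed where it changed a call of a TIP gene. The SEs, intervals and permutation tests of the results leave the pairing by replicate number out. In ZH 6D minus ZH 4D the SE of TIP1-1 S1_a_at was 0.51 with the block and 0.73 without it. For TIP3-1 these were 1.76 and 1.87, and for TIP4-2 they were 0.54 and 1.45. The alternatives were pseudocounts of 1 and 64, other filters, quantile normalization, median centring, the block, the groups of a comparison alone, and leaving out each array. No 2 arrays were identical.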

Additional observations from a re-analysis of the deposited data

How the results depend on the processing

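The 36 results of the 3 probe sets, 12 comparisons each, stayed on the same side of the adjusted p threshold in all settings, with a lowest adjusted p of 0.12, so that stability of a call was not at issue. Of 327 values under processing alternatives, 313 kept their direction. With replicate number as a block no other call of a member changed than that of TIP1-1 between the cultivars, and every estimate was as without it. Quantile normalization, without or with the replicate block, turned TIP1-1 S1_a_at in ZH 4D-2DC minus ZH 4D to -0.036, S1_x_at in ZH 12D minus ZH 10D to 0.029, and the cultivar difference of the change in TIP3-1 to -0.39. Median centring turned TIP1-1 S1_a_at in ZH 10D-2DC minus ZH 12D to -0.12, S1_x_at in HF 4D-2DC minus HF 4D to 0.33 and in the cultivar difference to 0.016, TIP3-1 in ZH 10D-2DC minus ZH 12D to -0.0066 and in HF 4D minus ZH 4D to -0.095. A pseudocount of 64 turned the last to -0.018. With ZH 6D alone as the early stage, added after the data were seen, the late minus early difference of TIP1-1 was -0.34 (S1_a_at) and -0.10 (S1_x_at).

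Leaving out 1 array at a time turned the sign in 39 of 180 values and in 24 of the 36 results. For TIP1-1 S1_a_at the values ranged from -0.15 to 0.55 in late minus early, -0.92 to 0.48 in ZH 12D minus ZH 10D, -0.62 to 0.78 in ZH 10D-2DC minus ZH 12D, -0.50 to 0.76 in ZH 4D-2DC minus ZH 4D, -0.41 to 0.13 in ZH 10D-2DC minus ZH 10D, -1.29 to 0.19 in HF 4D-2DC minus HF 4D and -1.42 to 0.063 in the cultivar difference. For S1_x_at they ranged from -0.17 to 1.04 in late minus early, -0.13 to 2.30 in ZH 6D minus ZH 4D, -0.36 to 0.25 in ZH 12D minus ZH 10D, -0.43 to 0.28 in ZH 10D-2DC minus ZH 12D, -0.96 to 1.47 in ZH 4D-2DC minus ZH 4D, -0.49 to 0.22 in ZH 10D-2DC minus ZH 10D, -0.42 to 0.19 in HF 4D-2DC minus HF 4D, -0.071 to 2.36 in HF 4D minus ZH 4D and -1.58 to 0.84 in the cultivar difference. For TIP3-1 they ranged from -0.0094 to 7.17 in ZH 6D minus ZH 4D, -0.47 to 0.94 in ZH 12D minus ZH 10D, -0.66 to 1.05 in ZH 10D-2DC minus ZH 12D, -1.26 to 5.91 in ZH 4D-2DC minus ZH 4D, -0.42 to 1.29 in ZH 10D-2DC minus ZH 10D, -3.55 to 3.63 in HF 4D minus ZH 4D, -0.39 to 0.71 between the treated cultivars and -3.47 to 3.71 in the cultivar difference. The widest of these ranges, for TIP3-1, came from leaving out the 1 or the other ZH 4D array. All 3 probe sets stayed below 0 in ZH 4D-2DC minus ZH 6D. A fit without 1 array assumes that the lone array varies like the other conditions.

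The number of all probe sets past the adjusted p in late minus early was 394 and ranged from 158 to 1393 over the settings, and the number past the methods' threshold was 3832 and ranged from 2644 to 5549. In the other comparisons the latter moved by over 1.5 times in 4 to 10 settings each, and at its widest, in HF 4D-2DC minus HF 4D, it was 786 and ranged from 176 to 4015. The cause was not tested.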
